A study of Mus musculus with 6 samples.

Results

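The genes described here are 10 cytosolic and endosomal nucleic acid sensors and their direct partners, *Rigi*, *Ifih1*, *Tlr3*, *Eif2ak2*, *Cgas*, *Aim2*, *Zbp1*, *Mavs*, *Sting1* and *Adar*. They were chosen by name, and each was matched by its Ensembl identifier to 1 of 55536 genes in the count table. Bulk RNA-seq compared 3 Ctrl and 3 TKO libraries of Epcam+α6+ basal cells sorted from dorsal skin at E16.5. In both groups *Suv39h1* and *Setdb1* were floxed (f/f), *Suv39h2* was deleted in the germline (Suv39h2-/-) and tamoxifen was given. The groups differed in K14CreERT2, a tamoxifen-activated recombinase driven by the keratin 14 promoter of basal keratinocytes, which was absent from Ctrl and present in TKO. Recombination in this model is often mosaic, the mice were of mixed genetic background, and Ctrl replicate 1 and TKO replicate 2 were female while the other 4 libraries were male. The comparison bears on whether cells that lose H3K9me3, a histone mark that silences repeats, change the genes that sense nucleic acids. By the paper, controls were littermates without Cre unless noted otherwise. Nothing in the labels states which samples shared a litter, or whether the 3 samples of a group came from separate litters. The p-values therefore measure the spread between these samples.

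Nucleic acid sensors recognise RNA or DNA by its form or its place in the cell, and so detect viruses as well as RNA and DNA of the cell's own repeats. *Rigi* and *Ifih1* bind double-stranded RNA in the cytosol and signal through *Mavs* on mitochondria, whereas *Cgas* binds cytosolic DNA and makes a cyclic dinucleotide that activates *Sting1*. Both routes lead to type I interferon, which in turn induces many of the sensors, and keratinocytes are known to carry several of them.

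Interferon is known to act on genes through short sequence elements, and matches to such an element are shown for the sensors whose start regions hold them, beside the start region of *Aim2*, the sensor with the largest difference below. RefSeq windows of 300 bases, from 250 before to 50 after each start, were given for 8 of the 10 genes and were placed in GRCm39 by exact match. They were searched on both strands for GAAANNGAAA (TTTCNNTTTC on the other strand), a core of the interferon-stimulated response element, which 3.44% of 32851 windows hold. It was found in *Rigi*, *Ifih1* and *Eif2ak2*, in each case just after the start, at bases 3, 33 and 19 counted from 1 at the start. The matches are printed 5′ to 3′ on the strand of the gene, with the motif in capitals.
*Rigi*, chr4:40239804-40239833, minus strand: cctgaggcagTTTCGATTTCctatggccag
*Ifih1*, chr2:62476550-62476577, minus strand: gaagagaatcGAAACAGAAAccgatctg
*Eif2ak2*, chr17:79189964-79189993, minus strand: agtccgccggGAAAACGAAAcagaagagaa
The windows of *Tlr3*, *Cgas*, *Aim2*, *Mavs* and *Adar* (3 windows) hold no such match. The STAT-binding motif TTCNNNGAA, which reads the same on both strands and occurs in 8.3% of windows, was found in 2 of the 8 genes, *Eif2ak2* and *Adar*, and not in *Aim2*. The *Aim2* stretch below ends 50 bases before the RefSeq start, and a match or its lack is only a description of these letters.
*Aim2*, chr1:173247920-173248119, plus strand: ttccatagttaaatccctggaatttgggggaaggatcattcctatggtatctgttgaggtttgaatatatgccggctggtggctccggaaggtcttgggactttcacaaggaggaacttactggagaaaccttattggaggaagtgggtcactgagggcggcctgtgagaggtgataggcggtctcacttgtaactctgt

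Total counts were 102159175, 136515436 and 104422632 in Ctrl replicates 1 to 3 and 116308383, 108957256 and 118413082 in TKO replicates 1 to 3. Levels are given in CPM, which divides each count by the size of its library after TMM scaling, and 3 counts, taken as the smallest detectable level, are between 0.0232 and 0.0303 CPM. *Setdb1*, the targeted methyltransferase with the clearest difference, was at 126, 118 and 121 CPM in Ctrl and at 95.3, 62.3 and 74.9 CPM in TKO, and the groups did not overlap. Its log2 fold change was -0.65 (SE 0.161, edgeR quasi-likelihood adjusted p = 0.286, DESeq2 adjusted p = 0.0449). *Suv39h1* (-0.10) and *Suv39h2* (0.11) had overlapping groups, and counts over whole genes do not isolate the deleted exons, so these values do not check the labels of those 2 genes. The basal keratinocyte markers *Krt5*, with a mean of 9433 CPM over the 6 libraries, *Krt14* and *Trp63* were abundant in every library. The differentiation keratin *Krt1* was abundant too (mean 8458 CPM), and 6 markers of differentiating keratinocytes summed to 18090, 17710 and 19590 CPM in Ctrl and to 15850, 11880 and 12430 CPM in TKO, without overlap. That sum is almost all *Krt1* and *Krt10* (log2 fold changes -0.51 and -0.42); of the 6 markers 3 were higher and 3 lower, with a median of 0.10, and *Loricrin* (0.49), *Sbsn* (0.41) and *Flg* (0.24) had the other sign. The part of this difference in the sensor levels was not tested. In bulk samples a smaller share of a cell type and less RNA per cell cannot be told apart.

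Of the 10 genes, 9 passed the filter on low counts and were tested. By edgeR 0 of the 9 were called (adjusted p under 0.05 with a log2 fold change beyond 1 in either direction), against 0.131% of all 20622 genes tested. At an unadjusted p under 0.05 there was 1, *Aim2*, higher in TKO, against 6.08% of all genes, and *Aim2* was also the only 1 of the 9 that DESeq2 called, against 1.04% of all genes. Values of 5 genes were higher and of 4 lower in TKO (51.9% of all genes tested were higher), with a median log2 fold change of 0.02 beside 0.01 over all genes tested. In 2 genes, *Aim2* and *Rigi*, all TKO libraries lay above all Ctrl libraries, against 6.35% of all genes tested, and in 0 genes did all lie below, against 5.11% (11.5% for either direction). Leaving aside *Aim2*, the 95% intervals of the other tested genes include 0, and those of *Rigi*, *Mavs* and *Adar* lie within a log2 change of 1 in either direction, as do those of *Eif2ak2* and *Sting1*.

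**Figure D1:**
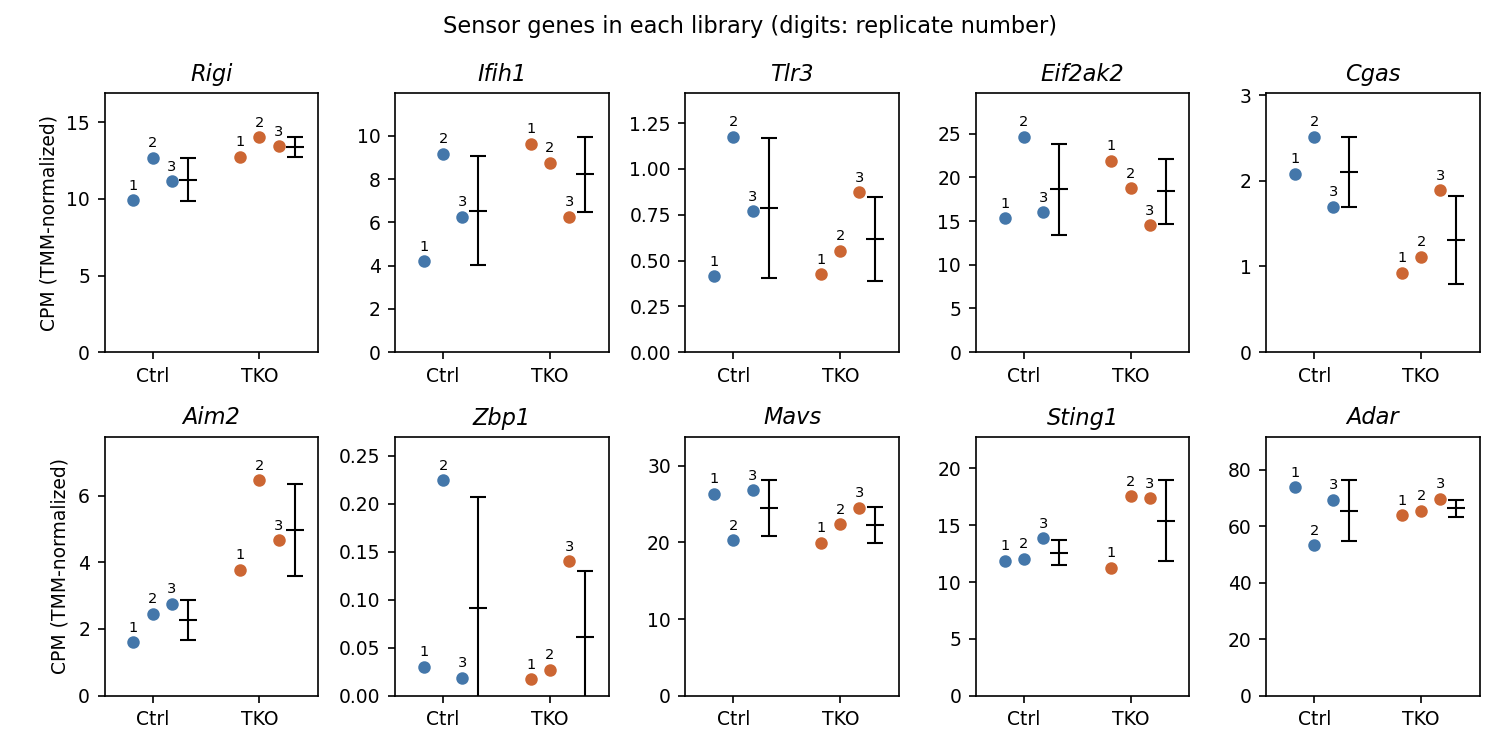
CPM of the 10 sensor genes in each library, 1 panel per gene, with each y axis starting at 0. Points are libraries numbered by replicate, and the bars beside them are the mean and SD of 3 libraries (the SD of *Zbp1* is cut off at 0). Only in the panels of *Aim2* and *Rigi* do all TKO points lie above all Ctrl points.

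Among the sensors of RNA, *Rigi*, which binds the ends of short double-stranded RNA, was at 9.93, 12.7 and 11.2 CPM in Ctrl and at 12.7, 14.0 and 13.4 CPM in TKO. The lowest TKO library, at 12.74 CPM, was just above the highest Ctrl library, at 12.68 CPM, and TKO libraries varied less (coefficient of variation 4.85% against 12.3%). The log2 fold change was 0.25 (SE 0.170, 95% interval -0.13 to 0.63, edgeR adjusted p = 1.0). *Ifih1*, encoding MDA5, which binds along long double-stranded RNA, was at 4.20, 9.18 and 6.26 CPM in Ctrl and at 9.64, 8.76 and 6.27 CPM in TKO. Ctrl replicate 1 was the lowest library, while the other 5 lay in 1 range, and the groups overlapped. The log2 fold change was 0.33 (SE 0.307, 95% interval -0.36 to 1.01), which leaves room for up to 2.02-fold more in TKO. This value hung on single libraries, at 0.09 without Ctrl replicate 1 and 0.65 without Ctrl replicate 2.

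*Tlr3*, the endosomal receptor for double-stranded RNA, was at 0.414, 1.18 and 0.770 CPM in Ctrl and at 0.425, 0.552 and 0.872 CPM in TKO. These levels rest on 41 to 152 counts per library and the groups overlapped fully, so that the interval of the log2 fold change of -0.35 is wide (SE 0.515, 95% interval -1.51 to 0.80). *Eif2ak2*, encoding PKR, a kinase that halts translation when it binds double-stranded RNA, was at 15.3, 24.7 and 16.0 CPM in Ctrl and at 21.9, 18.8 and 14.5 CPM in TKO. The highest and the lowest library were in different groups with the others between them, and the log2 fold change was -0.02 (SE 0.227, 95% interval -0.53 to 0.49). For *Tlr3* and *Eif2ak2* the sign of the difference hung on 1 library, since without Ctrl replicate 2 the log2 fold changes were 0.06 and 0.23, and that of *Eif2ak2* was 0.12 without TKO replicate 3. The 3 genes with the GAAANNGAAA core printed above, *Rigi*, *Ifih1* and *Eif2ak2*, thus had log2 fold changes from -0.02 to 0.33.

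The sensors of DNA differed in direction. *Cgas* was at 2.08, 2.52 and 1.70 CPM in Ctrl and at 0.926, 1.11 and 1.89 CPM in TKO. TKO replicates 1 and 2 were the lowest of all 6 libraries, and TKO replicate 3 lay within the Ctrl range. The log2 fold change was -0.68 (SE 0.387, 95% interval -1.54 to 0.19, edgeR adjusted p = 0.975). With 1 library left out it was at most -0.49, without TKO replicate 1 (edgeR unadjusted p = 0.292). It was at least -1.04, without TKO replicate 3 (edgeR unadjusted p = 0.0263).

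*Aim2*, which assembles an inflammasome with *Pycard* and *Casp1* on cytosolic double-stranded DNA, was at 1.59, 2.45 and 2.75 CPM in Ctrl and at 3.77, 6.46 and 4.65 CPM in TKO. The lowest TKO library was above the highest Ctrl library, and the 158 to 317 counts per Ctrl library and 444 to 714 per TKO library put it well above the detection floor. The mean was 2.19-fold higher in TKO, at 4.96 ± 1.37 CPM, than in Ctrl, at 2.27 ± 0.602 CPM (SD, n = 3 each). The log2 fold change was 1.13 (SE 0.33, 95% interval 0.39 to 1.87, or 1.31 to 3.65-fold). Its call differed between tools, with an adjusted p of 0.43 by edgeR (unadjusted p = 0.00672) and 0.0378 by DESeq2. The value lay between 0.89, without TKO replicate 2, and 1.29, without Ctrl replicate 3, and over all alternatives the adjusted p was between 0.0366 and 1.

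*Zbp1*, which binds left-handed Z-form RNA and DNA and can trigger cell death through *Ripk3*, was the least abundant of the 10. Its counts were 3, 29 and 2 in Ctrl and 2, 3 and 17 in TKO, too few to pass the filter. Ctrl replicate 2 and TKO replicate 3 held most of them, and the other 4 libraries were at or under the floor of 3 counts, so that no difference was detectable at this depth.

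Per kb of exon, each adaptor was more abundant than the sensors it serves, as described below. *Mavs* was at 26.4, 20.3 and 26.8 CPM in Ctrl and at 19.9, 22.4 and 24.5 CPM in TKO. The groups overlapped, and the log2 fold change was -0.14 (SE 0.166, 95% interval -0.51 to 0.24). *Sting1* was at 11.9, 12.04 and 13.9 CPM in Ctrl and at 11.3, 17.5 and 17.4 CPM in TKO. TKO replicates 2 and 3 were the highest and TKO replicate 1 the lowest of the 6 libraries, and the log2 fold change was 0.29 (SE 0.204, 95% interval -0.17 to 0.75, edgeR adjusted p = 1.0). *Adar*, which edits double-stranded RNA of the cell and so keeps it from *Ifih1* and *Eif2ak2*, was at 73.8, 53.3 and 69.3 CPM in Ctrl and at 63.8, 65.5 and 69.7 CPM in TKO. All TKO libraries lay within the Ctrl range, and the log2 fold change was 0.02 (SE 0.148, 95% interval -0.31 to 0.35), which turned to -0.11 without Ctrl replicate 2.

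**Figure D2:**
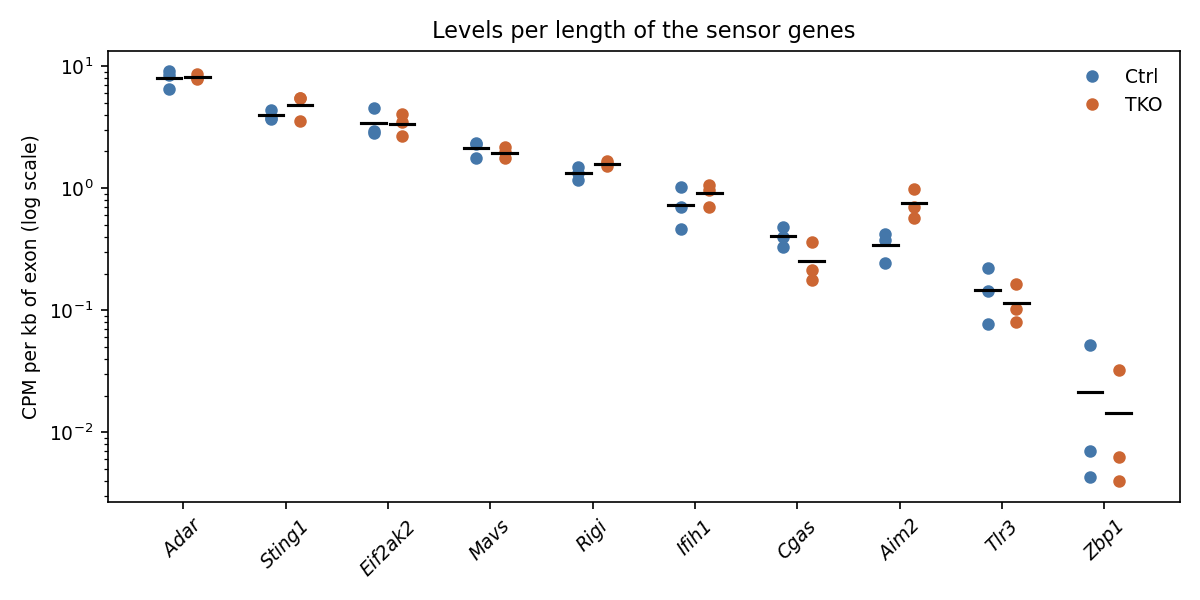
CPM per kb of annotated exon (log scale) for the 10 genes, in order of their Ctrl mean. Points are libraries, lines are means of 3 libraries; *Adar* is highest and *Zbp1* lowest, and *Aim2* is above *Cgas* in every TKO library.

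Levels were compared between genes per kb of annotated exon. In Ctrl, *Adar* was highest at 8.05 CPM per kb, above *Sting1* at 3.95 and *Eif2ak2* at 3.43 CPM per kb, whose ranges over the 3 libraries overlapped. *Mavs* at 2.15 and *Rigi* at 1.33 CPM per kb followed, each with a range of its own. *Ifih1* at 0.728, *Cgas* at 0.404 and *Aim2* at 0.345 CPM per kb formed a run in which each range overlapped the next. *Tlr3* at 0.147 and *Zbp1* at 0.0212 CPM per kb were below all others. In TKO the order of *Cgas* and *Aim2* was turned, at 0.252 ± 0.0985 and 0.755 ± 0.209 CPM per kb (SD, n = 3 each), with every TKO library of *Aim2* above every TKO library of *Cgas*. Exon lengths merge all transcripts of a gene, so that a gene that uses a short transcript is set too low on this scale.

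Some of the sensor genes overlap other genes. *Aim2* lies on the plus strand of chr1:173178445-173293930 in GRCm39, a span that GENCODE gives over all its transcripts, and overlaps *Cadm3*, a cell adhesion gene on the other strand, though no annotated exons of the genes overlap. The RefSeq start beside the stretch printed above lies inside this span and beyond the end of *Cadm3*, so that the overlap holds for the longer GENCODE span only. *Cadm3* was at 0.707, 0.387 and 0.724 CPM in Ctrl and at 1.29, 1.68 and 1.74 CPM in TKO, with a log2 fold change of 1.37 (SE 0.41, edgeR adjusted p = 0.454). The groups did not overlap. Whether the counting used the strand of the reads is not given in the sources used here, and the part of shared reads in the *Aim2* result was not tested. *Adar* shares exon sequence on the other strand with *Chrnb2*, which was at 1.75 to 3.52 CPM over the 6 libraries, far below *Adar*. For *Eif2ak2*, the overlapping *Gpatch11* had a log2 fold change of -0.06.

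Further neighbours of *Aim2* were listed after its value was seen, so the choice of this region is not independent of the data. Within 500 kb on either side the count table held 33 genes, of which 11 were tested. By edgeR 0 were called, against 0.131% of all genes tested, and DESeq2 called 1, *Gm7897*, against 1.04%. At an unadjusted p under 0.05 there were 4, against 6.08%, and the same 4 had all TKO libraries above all Ctrl libraries, against 6.35% of all genes tested. Of these 4, *Gm7897* passed the low-count filter only through its TKO libraries and *Ifi203-ps* had Ctrl counts near the minimum of 10, so that their direction was fixed in part by the filter, and the counts of 4 and the DESeq2 call are descriptions that support nothing. Apart from *Cadm3*, *Ackr1* and the pseudogene *Gm7897*, they belong to the Ifi200 family, to which *Aim2* is related.

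*Ifi202b*, whose protein binds DNA without the domain that recruits *Pycard* and is known as an antagonist of *Aim2*, had the highest level of them per kb of exon. It was at 8.79, 17.7 and 13.2 CPM in Ctrl and at 21.2, 38.3 and 19.0 CPM in TKO. Here too the groups did not overlap, with a mean 1.98-fold higher and a log2 fold change of 0.98 (SE 0.311, 95% interval 0.29 to 1.68, edgeR adjusted p = 0.526, DESeq2 adjusted p = 0.099). Over all alternatives the adjusted p was between 0.000649, by edgeR without the low-count filter and with a log2 fold change of 0.94, and 1. Without TKO replicate 2 the log2 fold change was 0.60. *Ifi203-ps*, a pseudogene, was at 0.101, 0.0774 and 0.167 CPM in Ctrl and at 0.629, 0.507 and 0.452 CPM in TKO, 4.6-fold more on average. *Gm7897* had 4, 0 and 0 counts in Ctrl and 34, 55 and 59 counts in TKO, with an adjusted p of 0.271 by edgeR and 0.00575 by DESeq2. The related *Ifi208*, *Ifi207*, *Ifi204*, *Mndal*, *Ifi211* and *Ifi203* had overlapping groups and log2 fold changes from -0.44 to 0.57. These genes are near copies of each other, and how reads that fit several of them were counted is not given, so their separate levels are uncertain.

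**Figure D3:**
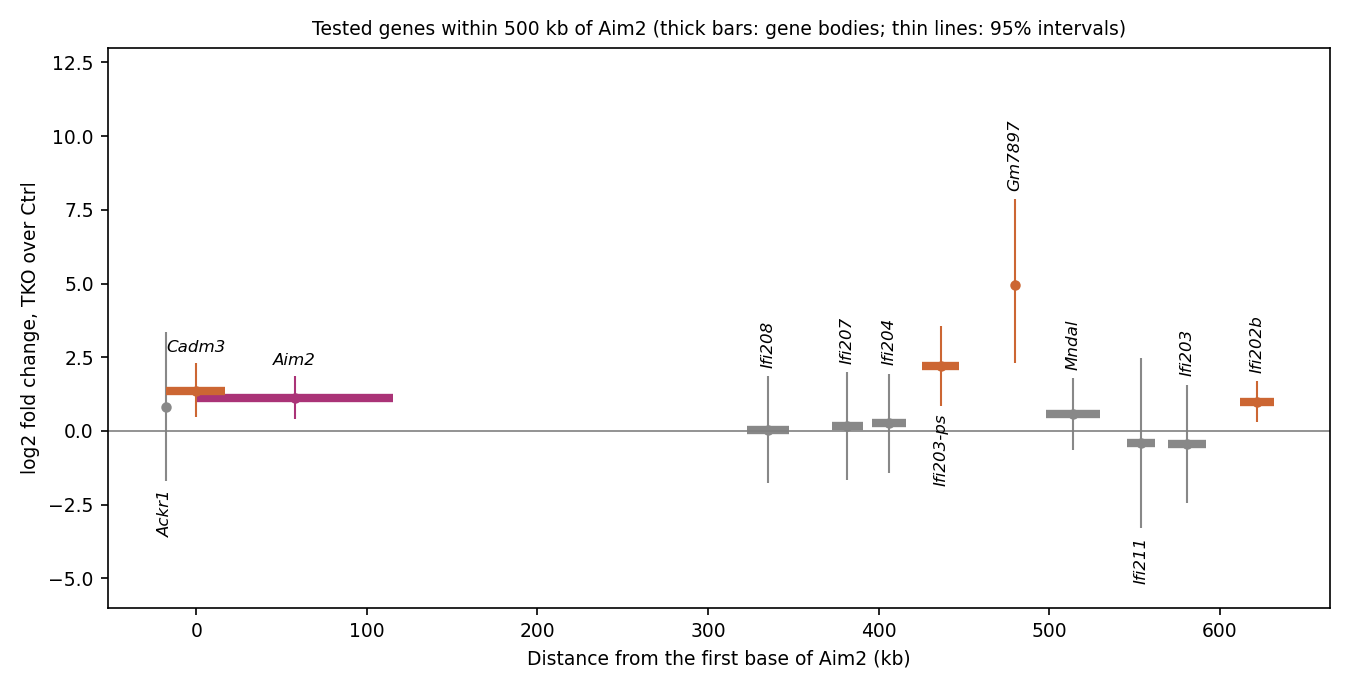
Log2 fold change of TKO over Ctrl (y axis) for *Aim2* and the 11 tested genes within 500 kb of it, by distance in kb from the first base of the GENCODE span of *Aim2*. Thick bars are gene bodies, thin lines 95% intervals of the edgeR fit, and colour marks *Aim2* and the 4 genes in which all TKO libraries were above all Ctrl libraries (grey: groups overlap); the fitted value of *Gm7897* depends on the prior count, since 2 Ctrl libraries had no read.

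Over the 6 libraries, *Slc2a9* and *Wnt2b* were among the 3 genes with the profiles most like that of *Aim2*. Likeness was the root mean square difference of log2(CPM + 0.1) after the mean of each gene was subtracted. It was 0.11 and 0.118, out of 20472 genes outside the lists that were compared. Near matches are bound to turn up among so many genes over 6 libraries, and *Aim2* was picked for its smallest p. The likeness is therefore a description only.

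The wider pathway was described with a list of 97 genes in 7 roles, of which 87 were tested. By edgeR 0 of the 87 were called, against 0.131% of all genes tested, and DESeq2 called 0 as well, against 1.04%. With an unadjusted p under 0.05, 2 genes were higher and 2 lower, against 4.06% and 2.02% of all genes tested. The median log2 fold change was 0.04, with 47 genes higher and 40 lower, and groups did not overlap in 5 higher and 4 lower genes, against 6.35% and 5.11% of all genes tested. The list holds 5 of the neighbours of *Aim2* described above, *Ifi203*, *Ifi204*, *Ifi207*, *Ifi211* and *Mndal*.

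Among 23 tested other sensors, 15 were higher and 8 lower, with a median log2 fold change of 0.27. *Oasl2*, of the oligoadenylate synthetase family, had the smallest p (log2 fold change 0.99, 95% interval -0.13 to 2.10), with the lowest TKO library, at 0.739 CPM, below the highest Ctrl library, at 0.774 CPM. *Zc3hav1*, which binds CpG-rich viral RNA, was at -0.26, and *Dhx36*, an RNA helicase that opens G-quadruplexes, was at 0.35. In *Dhx9*, a helicase that unwinds double-stranded RNA of repeats, with a mean of 416 CPM, all TKO libraries were above all Ctrl libraries (log2 fold change 0.23, 95% interval -0.07 to 0.52).

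Of 15 genes for adaptors, kinases and transcription factors, 7 were higher and 8 lower (median log2 fold change -0.003). *Trim25*, a ubiquitin ligase that aids *Rigi* signalling, was at 17.0, 14.4 and 17.97 CPM in Ctrl and at 21.8, 29.6 and 17.2 CPM in TKO. TKO replicate 3 lay within the Ctrl range (log2 fold change 0.48, edgeR adjusted p = 0.809). *Traf3*, which links *Mavs* to its kinases, had a log2 fold change of 0.35 with groups that did not overlap, and *Ikbke*, 1 of those kinases, 0.29. *Tbk1*, *Irf3* and *Rela*, through which the sensors reach interferon and NF-kB targets, had intervals that include 0.

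Of the 10 inflammasome and cell death genes, 4 were higher and 6 lower. *Pycard*, the adaptor that *Aim2* recruits, was at 55.8, 61.7 and 55.8 CPM in Ctrl and at 48.7, 43.7 and 52.9 CPM in TKO. All TKO libraries were below all Ctrl libraries, with a log2 fold change of -0.25 (SE 0.133, 95% interval -0.55 to 0.04, edgeR adjusted p = 0.918), the opposite sign to *Aim2*. *Casp8* was at -0.24 and *Gsdmd*, which forms the pore of pyroptosis, at 0.46 (95% interval -0.34 to 1.26), and at 0.09 without TKO replicate 2. *Casp1*, the protease of the complex, was at 0.136 to 0.634 CPM and *Il1b*, a cytokine it cleaves, at 0 to 0.453 CPM, so that neither was well measured.

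Among 12 tested genes that clear or restrain nucleic acids, 9 were higher and 3 lower. *Samhd1*, which depletes the nucleotides needed for reverse transcription, was at 26.6, 32.8 and 25.4 CPM in Ctrl and at 34.3, 44.3 and 39.4 CPM in TKO. All TKO libraries were above all Ctrl libraries (log2 fold change 0.48, SE 0.162, edgeR adjusted p = 0.629). *Enpp1*, which degrades the cyclic dinucleotide made by *Cgas*, was at 9.52, 5.73 and 5.40 CPM in Ctrl and at 4.28, 4.11 and 3.06 CPM in TKO. All TKO libraries were below all Ctrl libraries (log2 fold change -0.85, SE 0.295, edgeR adjusted p = 0.656, DESeq2 adjusted p = 0.167). Without Ctrl replicate 1, the highest library, the log2 fold change was -0.54 (edgeR unadjusted p = 0.0974). *Rnaseh2a*, a subunit of the enzyme that cuts RNA in RNA-DNA hybrids, was at 35.2, 33.4 and 28.1 CPM in Ctrl and at 25.9, 23.3 and 25.8 CPM in TKO, again without overlap (log2 fold change -0.37, edgeR adjusted p = 0.747). *Trex1*, the main cytosolic DNA exonuclease, was listed at 0 in all 6 libraries. Its exons overlap those of *Atrip* on the same strand, and the part of shared reads in this 0 was not tested.

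**Figure D4:**
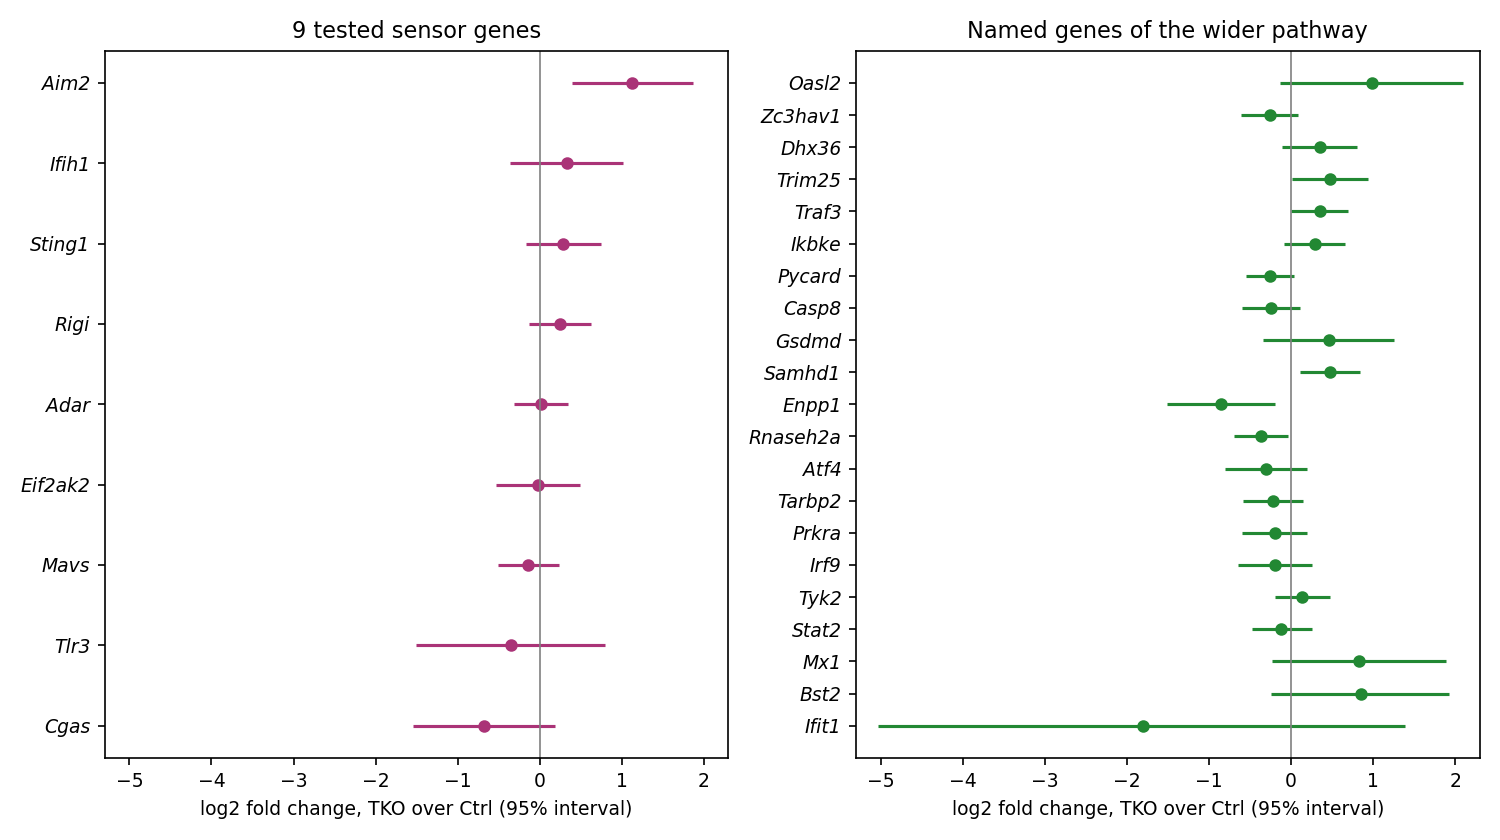
Log2 fold change of TKO over Ctrl (x axis) with 95% intervals from edgeR. The left panel shows the 9 tested sensor genes and the right panel the 3 genes with the smallest unadjusted p in each role of the pathway list; in the left panel only the interval of *Aim2* lies clear of 0.

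Of 8 genes that regulate *Eif2ak2* or act downstream of it, 2 were higher and 6 lower. *Atf4*, the transcription factor of the stress response, had a log2 fold change of -0.31 (95% interval -0.81 to 0.19), *Tarbp2* of -0.22 and *Prkra*, an activator of the kinase, of -0.20. Without TKO replicate 3 the log2 fold change of *Atf4* was -0.63, and without TKO replicate 2 it was -0.17. *Ddit3*, a target of *Atf4*, was at -0.24.

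Interferon transcripts were hardly present. Of 15 genes for interferons and their receptor, 8 were interferons, and 7 of these 8 had at most 3 counts in every library, with *Ifna1* and *Ifna4* at 0 throughout. *Ifnb1* was at 0.0606 CPM in Ctrl replicate 1 and had no count in the other 5 libraries, where 3 counts would be at most 0.0278 CPM. The receptor genes *Ifnar1* and *Ifnar2* and the transducers *Jak1*, *Tyk2*, *Stat2* and *Irf9* were all tested, and their log2 fold changes lay between -0.20 and 0.14.

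Of 12 interferon-stimulated genes, 6 were higher and 6 lower, with a median log2 fold change of 0.01. Their summed level was 12.5, 16.6 and 9.83 CPM in Ctrl and 14.8, 20.5 and 11.1 CPM in TKO, with overlapping groups. *Mx1* (0.83, 95% interval -0.23 to 1.89), *Bst2* (0.85, 95% interval -0.24 to 1.93) and *Ifit1* (-1.80, 95% interval -5.03 to 1.39) had the smallest p among them. *Ifit1* had 17, 33 and 14 counts in Ctrl and 0, 0 and 19 counts in TKO, so that its value hung on TKO replicate 3. Without that library the fitted value was -7.40, which depends on the prior count, since the TKO libraries left had no read. Without TKO replicate 1 it was -1.23. In *Bst2* the difference came mainly from TKO replicate 2, at 3.12 CPM beside 1.11 and 1.04 CPM in the other TKO libraries.

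Several genes of the list are best known from leukocytes, so immune cell markers were read beside them. The 12 markers summed to 30.3, 63.8 and 21.3 CPM in Ctrl and to 10.3, 104 and 30.5 CPM in TKO, a 10.1-fold range with overlapping groups. *Csf1r*, a receptor of macrophages, was the most abundant, while *Cd207* of Langerhans cells and *Cd3e* of T cells were at or near 0. *Tlr7*, an endosomal receptor for single-stranded RNA, and *Unc93b1*, which carries such receptors to their place, were highest in the same 2 libraries, Ctrl replicate 2 and TKO replicate 2. *Aim2* was highest in TKO replicate 2 also. In TKO replicate 1, with the lowest immune marker sum of all 6 libraries, *Aim2* was at 3.77 CPM, above every Ctrl library. A fit without both libraries numbered 2 was added after the data were seen. In it the log2 fold change of *Aim2* was 0.95 (edgeR unadjusted p = 0.0505), and that of *Ifi202b* was 0.87 (edgeR unadjusted p = 0.01). *Tlr3* and *Cgas* were highest in Ctrl replicate 2. In TKO replicate 2 *Tlr3* was below the middle and *Cgas* below the lowest Ctrl value. The part of immune cells in the levels of these genes was not tested.

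**Figure D5:**
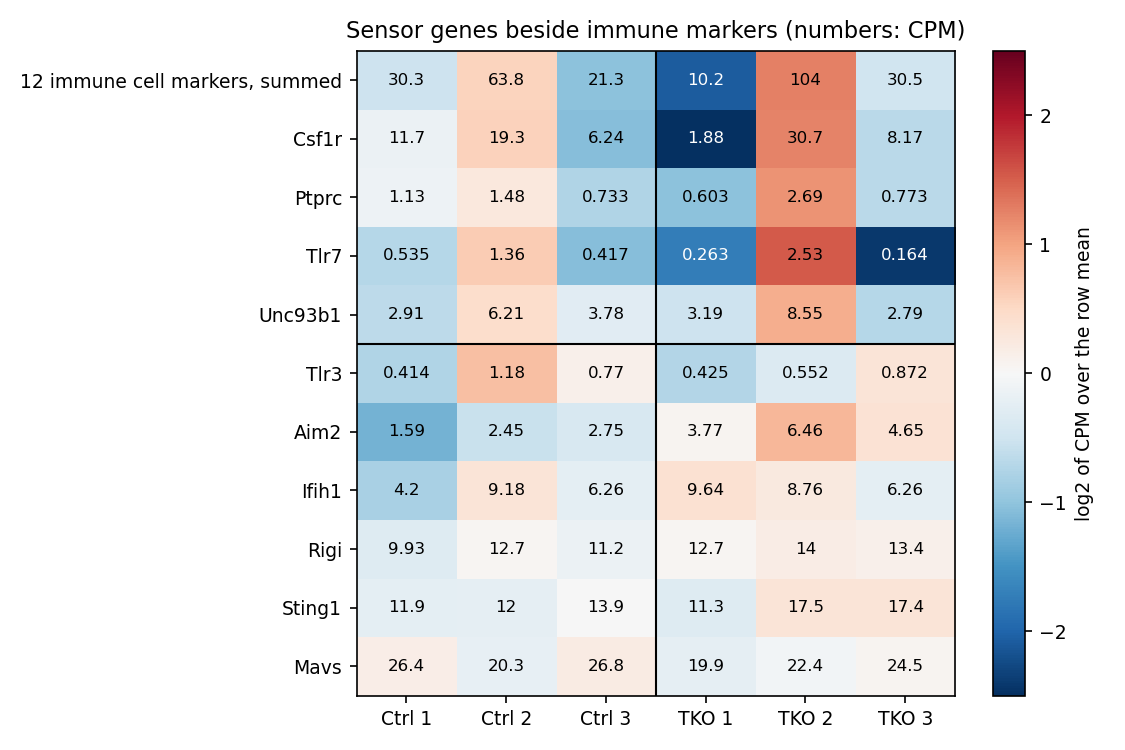
CPM (numbers) of the summed 12 immune cell markers, 4 genes shown beside them and 6 sensor genes in each library, coloured by the log2 ratio to the row mean. The marker sum is highest in TKO replicate 2 (104 CPM) and lowest in TKO replicate 1 (10.3 CPM). *Aim2* is above its Ctrl values in every TKO library.

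Markers of other cell types were present as well. The 6 fibroblast markers summed to between 978 and 2703 CPM with overlapping groups, led by *Col1a1*, with *Dpt* lowest. The 5 endothelial markers summed to 29.3 ± 5.76 CPM in the Ctrl group and to 45.8 ± 19.4 CPM in TKO (mean ± SD, n = 3 each), led by *Cdh5*, with *Emcn* lowest. The 6 skeletal muscle markers summed to 2.51 ± 0.732 and 6.13 ± 3.53 CPM, led by *Acta1*, with *Myod1* lowest, and were highest in TKO replicates 2 and 3, the libraries in which *Sting1* and *Aim2* were highest. The 6 red blood cell markers summed to 55.5 ± 31.0 CPM in Ctrl and to 95.5 ± 40.4 CPM in TKO (*Hba-a1* highest), and the 5 melanocyte markers to 9.57 ± 2.72 and 12.6 ± 1.07 CPM (*Mitf* highest, *Mlana* lowest). By sign of the log2 fold change, 5 of 5 endothelial, 6 of 6 skeletal muscle, 5 of 6 red blood cell and 5 of 5 melanocyte markers were higher in TKO, as were 9 of 10 tested immune cell and 2 of 6 fibroblast markers, beside 51.9% of all genes tested. By edgeR 0 of them were called, against 0.131% of all genes tested, and 1 endothelial, 1 muscle and 1 melanocyte marker were higher at an unadjusted p under 0.05, against 4.06%. *Sting1* is known to be abundant in endothelial cells, and the endothelial sums of 62.4 and 50.6 CPM in TKO replicates 2 and 3 went with its 2 highest values. Single markers moved more than the sums. *Mlana* of melanocytes was at 0.141, 0.0155 and 0.167 CPM in Ctrl and at 0.994, 1.53 and 0.304 CPM in TKO, without overlap (edgeR adjusted p = 0.36, DESeq2 adjusted p = 0.0206). *Acta1* of muscle was at 0.353, 0.573 and 0.965 CPM in Ctrl and at 0.960, 3.28 and 3.97 CPM in TKO, where TKO replicate 1 lay within the Ctrl range (edgeR adjusted p = 0.36, DESeq2 adjusted p = 0.0122). Both passed the DESeq2 thresholds, as *Aim2* and 1.04% of all genes tested did. The paper lists muscle programs among the genes upregulated in this bulk RNA-seq and reads them as non-lineage genes freed from repression. A marker higher in TKO may therefore come from other cells or from the sorted keratinocytes, which cannot be told apart here. The part of either in the sensor levels was not tested.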

How the data were processed

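The authors sorted the cells, depleted rRNA, trimmed reads with fastp and used STAR for alignment; the table they deposited holds raw counts for each Ensembl gene in the 6 libraries, with no normalization or pooling. The study's methods name GRCm39 and the submitters' processing notes GRCm38; the counting program, its annotation and its strand setting are not given in the sources used here. Symbols, positions and exon lengths came from GENCODE vM39 (GRCm39), which held 51477 of the 55536 genes.

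The main fit used edgeR 4.0.16 (R 4.3.3). Genes were kept by filterByExpr (minimum count 10, minimum total 15), libraries scaled by TMM, and TKO compared with Ctrl by glmQLFit (robust) and glmQLFTest, two-sided, with Benjamini-Hochberg adjustment over all 20622 genes tested. Genes were called at an adjusted p under 0.05 and a log2 fold change beyond 1 in either direction. DESeq2, the tool of the study, was an alternative (version 1.42.0 here). The fit was tested on simulated data. Sequences are from RefSeq (table build GRCm38.p6).

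The sensor genes and all lists were chosen with earlier results of these data known. Named genes are the 10 sensors, the targeted methyltransferases, overlapping genes, the 3 pathway genes of each role with the smallest unadjusted p, the highest and lowest marker of each cell type and the 3 genes most like the sensor with the smallest p. Other named genes, the neighbours of *Aim2* among them, were chosen after their values were seen. Alternatives were other normalizations, filters, thresholds, sex as a factor, the replicate number as a block and each library left out. Intervals cover the spread between libraries only. A few genes that these rules name are not reported here.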

Additional observations from a re-analysis of the deposited data

How the results depend on the processing

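The count of sensor genes called by edgeR was 0 and moved to 1, *Aim2*, under both DESeq2 fits (the same genes, and its default workflow, adjusted p = 0.0366); it was 0 under every other alternative run. No pathway gene was called under any alternative. The sign of *Tlr3*, *Eif2ak2* and *Adar* was not stable: with both libraries numbered 2 left out (an alternative added after seeing the data) the log2 fold changes were 0.13, 0.22 and -0.10, and with each library left out in turn they were -0.69 to 0.06, -0.18 to 0.23 and -0.11 to 0.11. *Adar* was at -0.01 without the low-count filter and *Tyk2* at -0.01 without both libraries numbered 2. Over all genes, 27 were called by edgeR, 9 with at least 10 counts required in every library, 214 by DESeq2 on the same genes (193 higher, 21 lower), 227 by its default workflow (198 higher, 29 lower), 235 without the low-count filter (213 higher, 22 lower), 7 without both libraries numbered 2, 11 at an adjusted p under 0.01, and 7 (without Ctrl replicate 2) to 81 (without TKO replicate 3) with 1 library left out. The cause of these differences was not tested. The replicate number as a block gave 45 calls (44 higher, 1 lower), none of them a sensor gene (*Aim2* adjusted p = 0.24). Deviations of same-numbered libraries correlated at 0.168, 0.0873 and 0.127, and each library correlated best with its own number. Libraries of unlike number correlated at -0.161 to 0.0398. The paper used littermate controls, but whether the numbers mark litters is not given. These values do not settle a pairing, and the main fit was unpaired. *Gm7897* passed the thresholds under DESeq2 and, with a log2 fold change of 4.92, without the low-count filter (edgeR adjusted p = 0.00425). Depth limits *Zbp1* and the interferons, and the differences of *Rigi* and *Sting1*, with standard errors of 0.170 and 0.204 on the log2 scale, could not be told from 0.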

Other observations

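*Aim2*, *Ifi202b* and *Pycard* encode proteins known to act on 1 complex, and the RNA levels of these genes in the same libraries can be set side by side. In TKO replicate 2, *Aim2* and *Ifi202b* were both at their highest (6.46 and 38.3 CPM) and *Pycard* at its lowest (43.7 CPM). In Ctrl replicate 2, *Pycard* was at its highest (61.7 CPM) while *Aim2* (2.45 CPM) was the middle and *Ifi202b* (17.7 CPM) the highest Ctrl library. In Ctrl replicate 1, *Aim2* and *Ifi202b* were at their lowest (1.59 and 8.79 CPM), and *Pycard*, at 55.8 CPM, was level with Ctrl replicate 3. Per kb of exon, the mean of *Ifi202b* was 7.34 CPM per kb in Ctrl and 14.5 CPM per kb in TKO, beside 0.345 and 0.755 CPM per kb for *Aim2*. These genes were set together after their values were seen, and no test was run on the set.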
